A study of Mus musculus with 10 samples.

Results

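Amino acid transporters of 7 solute carrier (Slc) subfamilies were described across mouse embryonic stem cells (ESCs) and the epiblast-like cells (EpiLCs) made from them. The rows were chosen by symbol alone, as those beginning with Slc1a, Slc3a, Slc6a, Slc7a, Slc36a, Slc38a or Slc43a and a number. The choice took 62 of the 22867 gene symbols measured. Of these, 61 name a transporter or its heavy chain, and the remaining row, Slc7a6os, is a neighbour named for lying opposite Slc7a6. Slc7a6os had between 25.3 and 38.8 FPKM in the 10 libraries, is not a transporter and is left out of every count below.

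RNA was sequenced in 10 libraries of 129SV cell lines, 1 file per library. EpiLC libraries were made by 48 h in N2B27 medium with bFGF and knockout serum replacement. They comprised 1 of an Otx2-/- line, 1 of R1 with activin A at 20 ng/ml, 1 of R1 without activin A and 1 of E14. ESC libraries were grown in N2B27 medium with LIF and the inhibitors PD0325901 (MEK, 0.8 µM) and CHIR99021 (GSK3, 3.3 µM), and comprised 1 of the Otx2-/- line, 2 of R1 and 1 of E14. A further 2 ESC libraries came from Otx2-/- cells carrying a tetON Otx2 transgene, 1 with doxycycline (dox) and 1 without, so both of these also lack the endogenous Otx2 gene. Otx2 encodes a homeobox factor of the epiblast. How the Otx2 deletion was made, the number of clones and the dox dose are not stated in the labels, and activin A is stated for neither E14 EpiLC nor Otx2-/- EpiLC. Medium and cell state changed together, so they cannot be told apart.

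Amino acids cross membranes only through carriers, and the subfamilies divide the work by charge, size and driving ion. Slc1 genes encode sodium-driven carriers of glutamate or of small neutral amino acids. Slc3a2 and Slc3a1 are heavy chains that bring light chains of the Slc7 group to the cell surface, where they exchange 1 amino acid for another, while the cationic carriers of Slc7 bring in arginine and lysine without a heavy chain. Slc6 genes carry taurine, creatine, glycine, proline, monoamines and neutral amino acids with sodium and chloride. Slc38 genes carry glutamine and other neutral amino acids, Slc36 genes couple transport to protons, and Slc43a1 and Slc43a2 carry large neutral amino acids. Pluripotent cells divide fast and are known for a high demand for amino acids, and uptake of leucine and glutamine feeds the growth kinase mTORC1.

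Values are FPKM, fragments scaled by transcript length and by library depth, and so levels can be set side by side between genes. At the approximate depth of the libraries, 1 FPKM of a 2 kb transcript rests on between 13.1 and 41.2 fragments. A gene is called not expressed here when it lay below 1 FPKM in all 10 libraries. The 6 naive ESC markers summed to between 133 and 235 FPKM in the 4 EpiLC libraries, to 536 FPKM in the dox library and to between 1346 and 1577 FPKM in the other 5 ESC libraries. The 6 EpiLC markers, Otx2 among them, summed to between 474 and 598 FPKM in EpiLC, to 1278 FPKM with dox and to between 52.1 and 113 FPKM in the other ESC libraries. Most of the dox sum was Otx2 itself, the induced gene (1059.3 FPKM). Each of the other EpiLC markers was lower with dox than in every EpiLC library, such as Pou3f1 at 6.01 FPKM, against at least 42.0 FPKM in EpiLC. Marker sums of other lineages stayed low in every library, at most 5.65 FPKM for primitive endoderm, 9.33 for trophoblast, 9.71 for 4 neural genes, 12.9 for primitive streak and 8.86 for fibroblasts. Otx2 itself had 15.8 FPKM in Otx2-/- EpiLC, 151 and 107 in R1 EpiLC with and without activin A, and 39.9 in E14 EpiLC. It had 1059.3 FPKM with dox, 45.8 without dox and 7.85 in Otx2-/- ESC, against between 3.96 and 9.09 in R1 and E14 ESC. The labels do not give the deleted part of the gene, so its remaining reads check nothing. R1 ESC replicate 1 stood apart from R1 ESC replicate 2 in several transporters, described with the results they touch.

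Of the 61 transporters, 19 reached 1 FPKM in all 10 libraries, another 19 in some of them and 23 in none. A median of at least 5 FPKM was found for 18, and a median of at least 20 FPKM for 10. The summed level of all 61 was between 515 and 709 FPKM per library, and the 5 highest genes of a library made up between 54.4% and 65.6% of it. The highest mean over the 10 libraries was that of Slc38a2, a glutamine and small neutral amino acid carrier, at 105 FPKM. The next were Slc38a4, a relative, at 70.7 FPKM, Slc3a2, the shared heavy chain, at 69.0 FPKM, Slc7a3, an arginine and lysine carrier, at 61.3 FPKM, and Slc7a5, the leucine importer, at 61.1 FPKM. The highest member of the other subfamilies was Slc6a6, the taurine carrier, at 44.3 FPKM, Slc1a5, a glutamine carrier, at 24.4 FPKM, Slc43a1, a large neutral amino acid carrier, at 6.47 FPKM, and Slc36a1, the lysosomal proton-coupled carrier, at 4.22 FPKM.

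**Figure D1:**
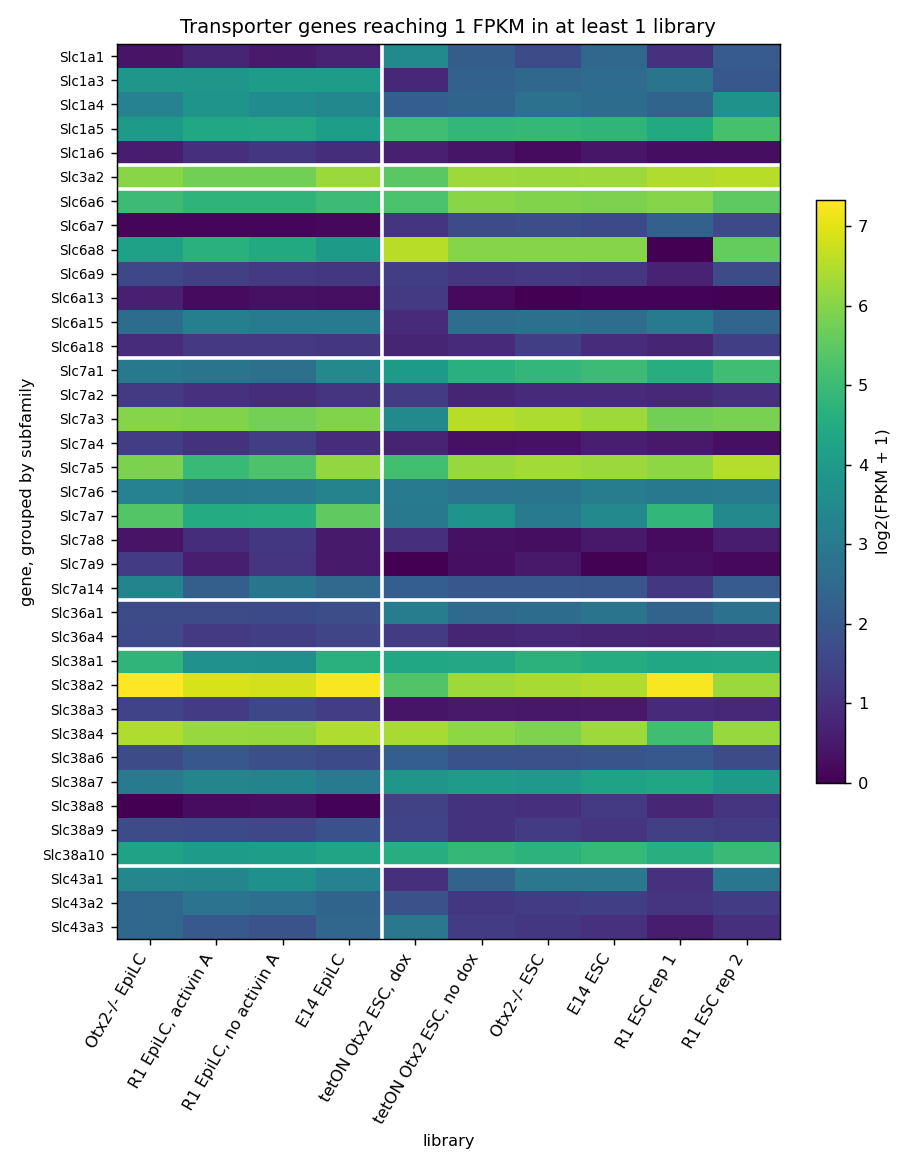
Level of 37 of the 38 transporters that reached 1 FPKM in at least 1 library, as log2(FPKM + 1), with genes as rows in subfamily order and the 10 libraries as columns, EpiLC left of the vertical white line. Slc38a2, Slc3a2, Slc7a3, Slc7a5 and Slc38a4 form the brightest rows, and the dark cell in the Slc6a8 row is R1 ESC replicate 1, where that gene is listed at 0.

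Silence was uneven between subfamilies. In Slc6, 11 of 19 genes were not expressed, among them all 3 monoamine carriers, Slc6a2 (noradrenaline), Slc6a3 (dopamine) and Slc6a4 (serotonin), and the glycine carrier Slc6a5. The others of that group were Slc6a11, Slc6a12, Slc6a14, Slc6a17, Slc6a19, Slc6a20a and Slc6a20b, and the highest value of any of the 11 was 0.427 FPKM. Slc6a20a and Slc6a20b are near-identical copies, so their split of reads is uncertain. In Slc7, 5 of 15 were not expressed, Slc7a10, Slc7a11, Slc7a12, Slc7a13 and Slc7a15. Slc7a12 was listed at 0 in all 10 libraries. Slc7a11, the cystine importer xCT that feeds glutathione synthesis, had between 0.184 and 0.757 FPKM. In Slc1, 2 of 7 were not expressed, the glial glutamate carrier Slc1a2 and Slc1a7. Slc36a2 and Slc36a3 (2 of 4 in Slc36) and Slc38a5 and Slc38a11 (2 of 11 in Slc38) were also below 1 FPKM throughout, while all 3 Slc43 genes were expressed. Of the heavy chains, Slc3a1, the partner of renal cystine uptake, reached at most 0.185 FPKM, and its light chain Slc7a9 at most 1.47 FPKM. The highest value among all 23 was 0.900 FPKM, for Slc38a5 in R1 ESC replicate 1, so some of them lie just under the threshold.

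The series asked what changes when ESCs become EpiLCs. R1 and E14 EpiLC (3 libraries) were compared with R1 and E14 ESC (3 libraries) by limma on log2(FPKM + 1) with the line as a covariate. Genes averaging 1 FPKM or more entered, with Benjamini-Hochberg adjustment over all of them and a threshold of 0.05. Of 31 transporters tested, 3 rose and 7 fell (9.68% and 22.6%), against 9.73% and 10.6% of all 12244 genes tested, and 20.3% of all genes in either direction. At an unadjusted p under 0.05, 15 of the 31 passed (48.4%), against 36.8% of all genes. The other 7 expressed transporters (Slc1a6, Slc6a13, Slc7a2, Slc7a4, Slc7a8, Slc7a9 and Slc38a8) averaged too little to be tested, and none exceeded 1.72 FPKM in any library. The median log2 fold change of the 31 was 0.08, and that of all genes was -0.09. EpiLC lay wholly above ESC for 9 of the 31 and wholly below for 10, against 19.7% and 25.5% of all genes tested. Below, EpiLC values are given as R1 without activin A, R1 with activin A and E14, and ESC values as R1 replicate 1, R1 replicate 2 and E14. In bulk RNA, fewer expressing cells and less RNA per cell cannot be told apart.

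**Figure D2:**
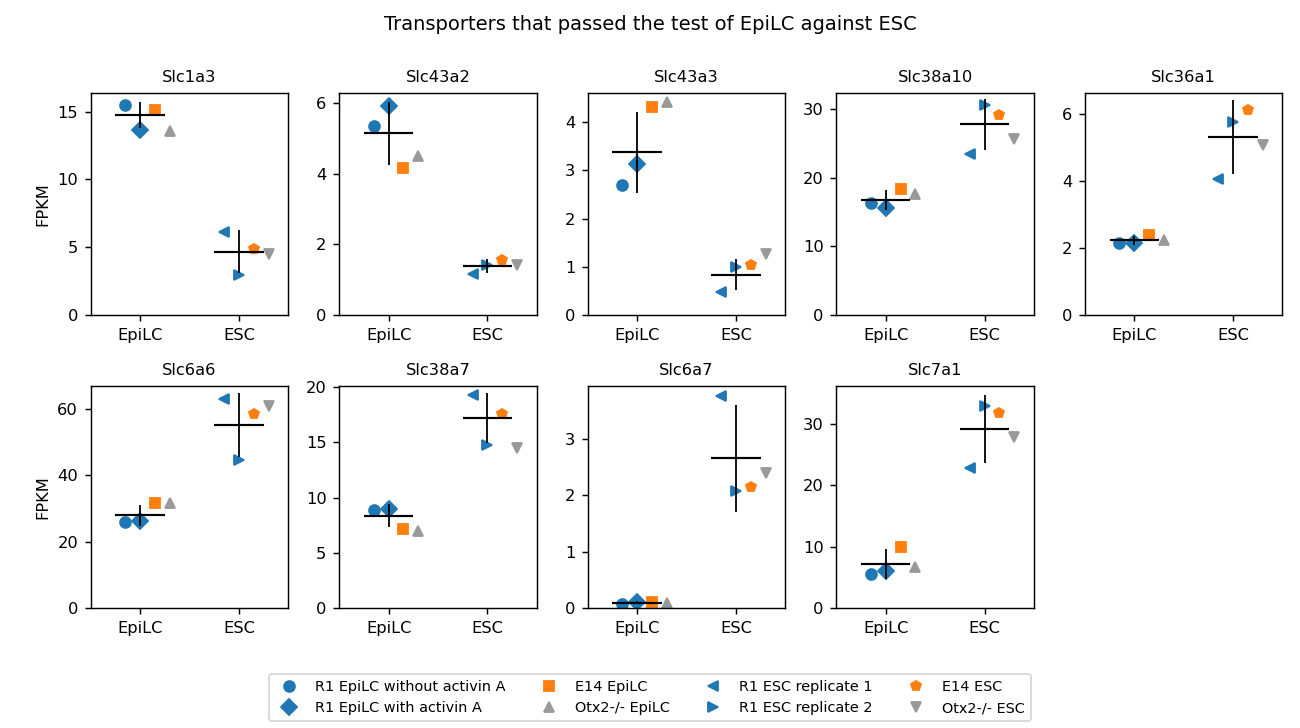
FPKM of 9 of the 10 transporters that passed the test of EpiLC against ESC, 1 panel per gene with its own axis starting at 0, EpiLC left of ESC. Coloured points are single R1 and E14 libraries, black lines their mean and SD (n = 3), and grey triangles the Otx2-/- library of the same state, which was not in the test. In all 9 panels the 3 EpiLC points are separated from the 3 ESC points.

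Among the glutamate carriers, Slc1a3 rose, Slc1a1 was lower without passing, and Slc1a6 averaged too little to be tested. Slc1a6 had 1.24, 1.02 and 0.960 FPKM in EpiLC, against 0.197, 0.217 and 0.355 FPKM in ESC. Slc1a3 (GLAST, chromosome 15, 8584123 to 8660807 on mm9), a sodium-driven glutamate importer known from glia, had 15.5, 13.7 and 15.1 FPKM in EpiLC, against 6.13, 2.98 and 4.91 FPKM in ESC. The groups did not overlap, and the EpiLC values lay close together, far above the highest ESC value. The mean was 14.8 ± 0.97 FPKM in EpiLC and 4.67 ± 1.59 in ESC (SD, n = 3 each), and the log2 fold change was 1.51 (SE 0.24, limma adjusted p = 0.0148). The 4 neural markers did not move with it, with sums between 1.78 and 3.85 FPKM in these EpiLC libraries and between 2.40 and 4.76 FPKM in these ESC libraries.

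Slc1a1 (EAAC1), a glutamate and cysteine importer of neurons and epithelia, had 0.432, 0.682 and 0.637 FPKM in EpiLC, against 1.08, 3.33 and 4.56 FPKM in ESC. EpiLC lay below ESC in every library, but a log2 difference of -1.22 (SE 0.35) did not pass (limma adjusted p = 0.0640). Without R1 ESC replicate 1, the ESC library with the lowest value, it was -1.60 and passed (limma adjusted p = 0.00582, range over alternatives 0.00582 to 0.215). The summed level of the 5 glutamate carriers was 17.5 ± 1.04 FPKM in EpiLC and 8.29 ± 1.73 FPKM in ESC (SD, n = 3 each). Slc1a3 made up 84.5 ± 1.70% of that sum in EpiLC and 57.1 ± 21.2% in ESC, while Slc1a1 made up 3.37 ± 0.934% in EpiLC and 35.3 ± 18.1% in ESC (SD, n = 3 each). The ESC spread came from R1 ESC replicate 1, where the Slc1a3 share was 81.4%, close to EpiLC. Without it the ESC shares were 45.0% for Slc1a3 and 45.7% for Slc1a1.

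The neutral carriers of the same subfamily gave values without a call. Slc1a5 (ASCT2), the glutamine exchanger, had 20.5, 19.8 and 16.3 FPKM in EpiLC, against 20.9, 36.05 and 26.6 FPKM in ESC (log2 fold change -0.51, limma adjusted p = 0.164). The groups were separated, but R1 ESC replicate 1 lay just above the highest EpiLC library. Without that replicate the log2 fold change was -0.75 (limma adjusted p = 0.00793, range over alternatives 0.00793 to 0.374). Slc1a4 (ASCT1), which carries serine and alanine, had 10.9, 12.9 and 9.70 FPKM in EpiLC, against 4.12, 12.5 and 4.98 FPKM in ESC, and R1 ESC replicate 2 lay among the EpiLC values.

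The heavy chain Slc3a2 (4F2hc, CD98) had 53.5, 53.2 and 73.6 FPKM in EpiLC, against 86.3, 93.0 and 75.1 FPKM in ESC. The groups were separated only narrowly, between both E14 libraries, and its difference, -0.50 on the log2 scale (SE 0.19), did not pass (limma adjusted p = 0.119). Its main light chain Slc7a5 (LAT1), the importer of leucine and other large neutral amino acids, had 38.3, 29.5 and 70.3 FPKM in EpiLC, against 66.7, 90.1 and 74.4 FPKM in ESC. E14 EpiLC overlapped with ESC, and its difference, -0.82 on the log2 scale (SE 0.29), did not pass either (limma adjusted p = 0.104). Slc7a6 (y+LAT2) stayed between 6.79 and 8.73 FPKM in these 6 libraries, with a log2 fold change of 0.07 (limma adjusted p = 0.728).

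Slc7a7 (y+LAT1), which exports arginine and lysine in exchange for neutral amino acids and sodium, had 22.2, 21.9 and 45.2 FPKM in EpiLC, against 27.7, 9.85 and 9.84 FPKM in ESC. R1 ESC replicate 1 lay above both R1 EpiLC libraries, so the groups overlapped, and the log2 difference, 0.95 (SE 0.50), did not pass (limma adjusted p = 0.229). Without that replicate it was 1.52 (limma adjusted p = 0.0147, range over alternatives 0.0147 to 0.621). Slc7a7 overlaps the gene Oxa1l, which had between 31.7 and 46.4 FPKM in the 10 libraries, and without strand their reads in the overlap cannot be told apart. The other light chains were low: Slc7a8 reached at most 1.28 FPKM, and Slc7a10 and Slc7a11 were not expressed.

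Within the summed FPKM of the 6 light chains that pair with Slc3a2, Slc7a5 made up 53.6 ± 3.65% in EpiLC and 76.4 ± 9.47% in ESC (SD, n = 3 each), and Slc7a7 made up 35.0 ± 2.60% in EpiLC and 15.7 ± 10.1% in ESC. Neither share overlapped between the groups. Leaving out R1 ESC replicate 1, the ESC share of Slc7a7 was 9.86% and that of Slc7a5 was 81.8%. The sum itself was 84.7 ± 35.2 FPKM in EpiLC and 101 ± 7.80 FPKM in ESC, and it overlapped.

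**Figure D3:**
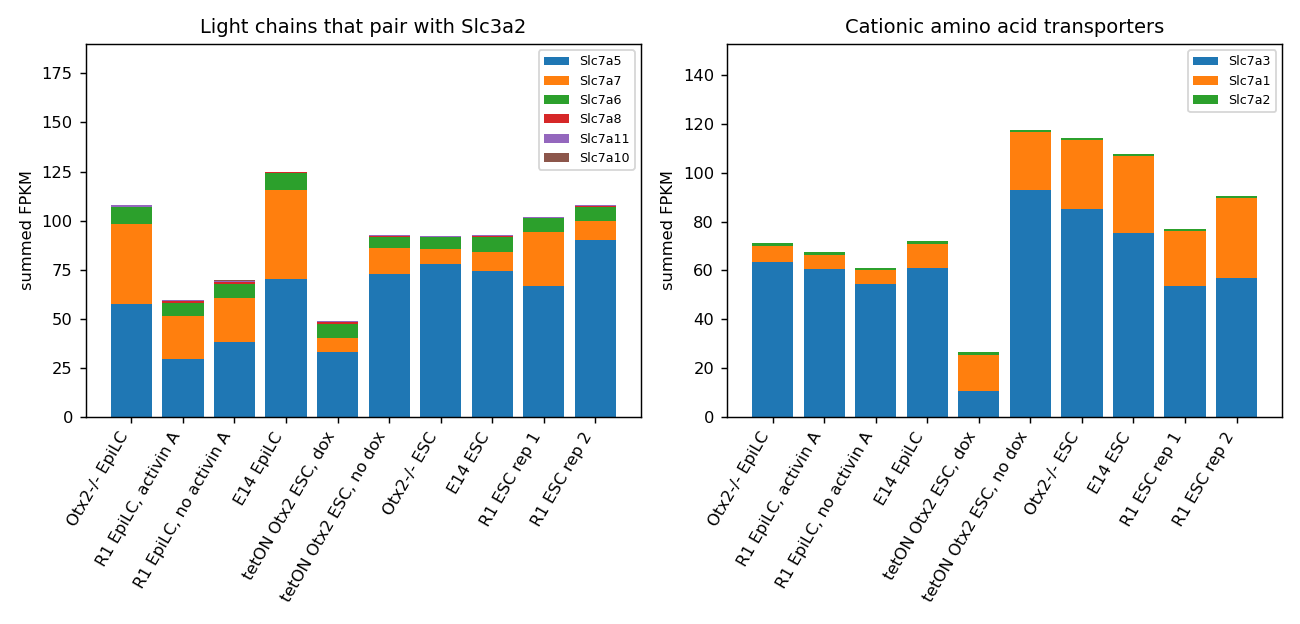
Summed FPKM of the light chains that pair with Slc3a2 (left) and of the cationic carriers (right) in each of the 10 libraries, each bar divided by gene. The orange Slc7a7 segment is tallest in the 4 EpiLC libraries and in R1 ESC replicate 1, the orange Slc7a1 segment of the right panel is between 5.52 and 9.90 FPKM in EpiLC, and the blue Slc7a3 segment is 10.4 FPKM with dox.

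Promoter stretches of 3 genes are printed because they alone, of the 43 transporters found in the RefSeq promoter table of build GRCm38.p6, held the motif TGATGNAA, on either strand, between 250 bases before and 50 bases after a start. This is the core of the C/EBP-ATF response element, to which ATF4 binds with a C/EBP partner when amino acids are short, and Atf4 is among the genes tested further below. The stretches run 150 bases before the start to 20 bases after it, 5′ to 3′ on the gene's strand, with the motif in capitals.
Slc7a7, chr14:54417925-54418094, minus strand: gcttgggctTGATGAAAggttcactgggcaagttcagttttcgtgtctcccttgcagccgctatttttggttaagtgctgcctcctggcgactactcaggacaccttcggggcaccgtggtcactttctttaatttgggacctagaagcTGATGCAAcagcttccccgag
Slc1a4, chr11:20332694-20332863, minus strand: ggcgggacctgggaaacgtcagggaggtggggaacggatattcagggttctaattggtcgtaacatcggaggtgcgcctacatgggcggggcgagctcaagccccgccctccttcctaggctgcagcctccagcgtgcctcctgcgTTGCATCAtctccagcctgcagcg
Slc7a11, chr3:50443594-50443763, minus strand: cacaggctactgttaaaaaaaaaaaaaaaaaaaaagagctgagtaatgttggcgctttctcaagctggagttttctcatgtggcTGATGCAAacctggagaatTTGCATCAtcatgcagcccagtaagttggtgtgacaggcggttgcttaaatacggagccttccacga
The Slc7a7 stretch held 2 matches, beginning 141 bases and 1 base before the start, both on the gene's strand. The Slc1a4 stretch held 1 match on the opposite strand, and the Slc7a11 stretch held 2 on opposite strands, 66 and 47 bases before the start. The motif stood in 4 of 64 transporter windows (6.25%), of which 2 are overlapping Slc7a7 windows that share a match, and in 1304 of 32851 windows of all genes (3.97%). A match describes letters, not a bound site. EpiLC and ESC overlapped for both Slc7a7 and Slc1a4, and Slc7a11 was not expressed.

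The cationic carriers differed from each other. Slc7a1 (CAT1, chromosome 5, 149138985 to 149211480 on mm9), a widely expressed arginine and lysine importer, fell to 5.52, 6.05 and 9.90 FPKM in EpiLC, against 22.7, 32.9 and 31.7 FPKM in ESC. The highest EpiLC library was below the lowest ESC library by a wide margin. Its mean was 7.16 ± 2.39 FPKM in EpiLC and 29.1 ± 5.55 FPKM in ESC (SD, n = 3 each), and it fell by 1.91 on the log2 scale (SE 0.20, limma adjusted p = 0.00511). Slc7a3 (CAT3), which carries the same substrates, had 54.6, 60.4 and 60.9 FPKM in EpiLC, against 53.5, 56.8 and 75.2 FPKM in ESC. The groups overlapped, and the log2 fold change was -0.06 (SE 0.14, limma adjusted p = 0.782). Its sign turned to 0.06 under median-ratio scaling and in R1 alone. Slc7a2 (CAT2) stayed between 0.758 and 1.16 FPKM in these 6 libraries. Slc7a3 made up 87.8 ± 2.78% of the summed cationic carriers in EpiLC and 67.3 ± 4.04% in ESC (SD, n = 3 each), while Slc7a1 made up 10.6 ± 2.74% in EpiLC and 31.7 ± 3.92% in ESC, with no overlap in either share. Slc7a14, a lysosomal relative of these carriers, had 6.18, 3.66 and 4.63 FPKM in EpiLC, against 1.29, 3.32 and 2.88 FPKM in ESC, separated but without a call (log2 fold change 0.77, limma adjusted p = 0.142).

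In Slc6, the carriers of proline and taurine were among those that fell, and no gene rose. Slc6a7, the proline importer known from brain, had 0.0714, 0.102 and 0.115 FPKM in EpiLC, against 3.75, 2.08 and 2.14 FPKM in ESC. It was below 1 FPKM in EpiLC and above it in ESC, and fell by 1.71 on the log2 scale (SE 0.24, limma adjusted p = 0.0104). Slc6a6, the taurine importer, had 26.1, 26.2 and 31.6 FPKM in EpiLC, against 63.1, 44.5 and 58.4 FPKM in ESC. The groups were apart, and it fell by 0.95 (SE 0.17, limma adjusted p = 0.0190). Slc6a15, a carrier of branched-chain amino acids and proline in brain, had 6.96, 7.97 and 7.22 FPKM in EpiLC, against 6.93, 4.21 and 5.18 FPKM in ESC. R1 ESC replicate 1 lay just below the lowest EpiLC library, and the log2 fold change of 0.40 did not pass (limma adjusted p = 0.205).

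Slc6a8, the creatine importer, can only be described, since it is listed at 0 in R1 ESC replicate 1, as were 35 of the 4246 genes with a median of at least 20 FPKM (between 8 and 42 of them in each of the 10 libraries). It had 21.0, 24.0 and 14.96 FPKM in EpiLC, against 47.4 FPKM in R1 ESC replicate 2 and 62.3 FPKM in E14 ESC. The 3 EpiLC values lay below both of those ESC values. Without replicate 1 the log2 fold change was -1.45 (SE 0.24, limma adjusted p = 0.0154, range over alternatives 0.0154 to 0.979). The glycine carrier Slc6a9 and Slc6a18 were tested and did not pass, at between 0.614 and 2.28 FPKM in these libraries.

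Among the Slc38 carriers, those at the top of the subfamily did not pass and 2 of the middle range fell. Slc38a2 (SNAT2), which amino acid shortage is known to induce, had 113, 117 and 152 FPKM in EpiLC, against 152, 73.5 and 86.1 FPKM in ESC. R1 ESC replicate 1 was as high as the highest EpiLC library, and the log2 difference, 0.35 (SE 0.31), did not pass (limma adjusted p = 0.449). Without that replicate it was 0.71 (limma adjusted p = 0.00933, range over alternatives 0.00933 to 0.840). Slc38a4 (SNAT4), an imprinted neutral amino acid carrier, had 70.4, 72.1 and 87.1 FPKM in EpiLC, against 33.2, 73.0 and 75.1 FPKM in ESC, and only R1 ESC replicate 1 stood below the rest. Slc38a1 (SNAT1), a glutamine importer, had 11.9, 12.0 and 24.1 FPKM in EpiLC, against 19.7, 20.5 and 22.4 FPKM in ESC, and the E14 EpiLC library was above all 3 ESC libraries.

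Slc38a7 (SNAT7), which exports glutamine and asparagine from lysosomes, fell to 8.89, 9.01 and 7.204 FPKM in EpiLC, against 19.3, 14.8 and 17.6 FPKM in ESC. The groups did not overlap (log2 fold change -0.96, SE 0.16, limma adjusted p = 0.0164). Slc38a10 fell to 16.3, 15.6 and 18.3 FPKM in EpiLC, against 23.5, 30.6 and 29.1 FPKM in ESC (log2 fold change -0.69, SE 0.15, limma adjusted p = 0.0304). Its groups were also separated, and under median-ratio scaling its call was lost. Slc38a9, the arginine sensor of mTORC1 on the lysosome, had 1.98, 2.16 and 2.61 FPKM in EpiLC, against 1.63, 1.48 and 1.13 FPKM in ESC, separated but without a call (log2 fold change 0.43, limma adjusted p = 0.152). Slc36a1 (PAT1), the proton-coupled exporter of small amino acids from lysosomes, fell to 2.15, 2.16 and 2.39 FPKM in EpiLC, against 4.06, 5.75 and 6.13 FPKM in ESC. Its EpiLC values lay close together and under all ESC values (log2 fold change -0.95, SE 0.17, limma adjusted p = 0.0193). Slc36a4 (PAT4) had 1.56, 1.36 and 1.89 FPKM in EpiLC, against 0.656, 0.735 and 0.698 FPKM in ESC, and the glutamine carrier Slc38a3 (SNAT3) had 2.03, 1.45 and 1.54 FPKM in EpiLC, against 0.874, 0.757 and 0.417 FPKM in ESC. Both were separated between the groups without a call (limma adjusted p = 0.0612 for Slc36a4 and 0.0605 for Slc38a3).

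All 3 Slc43 genes were higher in every EpiLC library than in every ESC library, and 2 of them passed. Slc43a2 (LAT4), a facilitative carrier of leucine, phenylalanine and methionine, had 5.36, 5.91 and 4.16 FPKM in EpiLC, against 1.17, 1.42 and 1.57 FPKM in ESC. It rose by 1.36 on the log2 scale (SE 0.18, limma adjusted p = 0.00952). Slc43a3, whose known substrates are purine bases rather than amino acids, had 2.69, 3.13 and 4.31 FPKM in EpiLC, against 0.469, 0.997 and 1.05 FPKM in ESC, and rose by 1.251 (SE 0.19, limma adjusted p = 0.0133). Slc43a1 (LAT3), a carrier of the same kind as Slc43a2, had 11.8, 9.24 and 8.60 FPKM in EpiLC, against 1.07, 6.29 and 6.68 FPKM in ESC. Its ESC spread came from R1 replicate 1, and the log2 difference, 1.15 (SE 0.53), did not pass (limma adjusted p = 0.183; 0.51 and 0.0663 without that replicate, range over alternatives 0.0663 to 0.427).

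The calls rested on few libraries. Slc7a1 kept its call in each leave-one-out fit. Without either R1 EpiLC library 2 of the 10 passed, Slc7a1 among them, without either E14 library 4 passed, Slc7a1, Slc43a2 and Slc6a7 among them, without R1 ESC replicate 2 the calls of Slc36a1 and Slc38a10 were lost, and without R1 ESC replicate 1 Slc6a7 was no longer tested. Besides Slc1a1, Slc1a5, Slc7a7, Slc38a2 and Slc6a8, the fit without R1 ESC replicate 1 added Slc36a4, Slc38a3 and Slc6a15, while the fit without R1 ESC replicate 2 added Slc1a4. No log2 fold change of the 10 changed sign in any fit. Calls over all genes moved as well, from 1191 higher and 1293 lower with every library. They numbered 211 and 187 without R1 EpiLC lacking activin A, and 322 and 276 without R1 EpiLC given it. They numbered 499 and 345 without E14 ESC, and 441 and 332 without E14 EpiLC. Without R1 ESC replicate 1 they numbered 1890 and 2228, and without replicate 2, 863 and 966. Losses and gains of calls were thus not particular to the transporters.

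The Otx2-/- line gave a further pair of libraries that were not in this test. All 10 transporters called in R1 and E14 had the same sign in Otx2-/- EpiLC over Otx2-/- ESC, and 6 of them had a log2 ratio of at least 1 in size. The same counts were not made over all called genes, so they do not set these transporters apart. Slc7a1 had 6.73 FPKM in Otx2-/- EpiLC and 27.9 FPKM in Otx2-/- ESC, and Slc1a3 had 13.6 FPKM in Otx2-/- EpiLC and 4.54 FPKM in Otx2-/- ESC. Slc7a1 lay within the R1 and E14 values of both states, and Slc1a3 within them in ESC and just below them in EpiLC. Slc43a3 had 4.40 FPKM in Otx2-/- EpiLC and 1.26 FPKM in Otx2-/- ESC, and Slc43a2 had 4.49 FPKM in Otx2-/- EpiLC and 1.41 FPKM in Otx2-/- ESC. Slc6a7 had 0.0968 FPKM in Otx2-/- EpiLC and 2.39 FPKM in Otx2-/- ESC, and Slc6a6 had 31.8 FPKM in Otx2-/- EpiLC and 61.0 FPKM in Otx2-/- ESC. Of the lysosomal genes, Slc38a9 (2.25 against 1.42 FPKM in Otx2-/- ESC) and Slc7a14 were higher in Otx2-/- EpiLC. Slc38a7 and Slc36a1 were likewise lower in the Otx2-/- EpiLC library. Slc38a7 had 6.99 FPKM there and 14.5 FPKM in Otx2-/- ESC, and Slc36a1 had 2.24 FPKM there and 5.07 FPKM in Otx2-/- ESC. Slc38a10 had 17.5 FPKM in Otx2-/- EpiLC and 25.6 FPKM in Otx2-/- ESC.

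By size alone, 3 of 21 transporters that reached 5 FPKM in either Otx2-/- library were at least 2-fold higher (on FPKM + 1) in Otx2-/- EpiLC and 3 were lower, against 6.99% and 8.47% of all genes that reached that level. The higher ones were Slc1a3, Slc7a14 and Slc7a7, and the lower ones included Slc7a1 and Slc6a8. Slc7a7 had 40.6 FPKM in Otx2-/- EpiLC, against 7.33 FPKM in Otx2-/- ESC, and Slc7a14 had 8.96 FPKM in Otx2-/- EpiLC, against 2.93 FPKM in Otx2-/- ESC. In the E14 pair the same rule gave 2 of 19 higher in E14 EpiLC, Slc1a3 and Slc7a7, and 4 lower, Slc6a8, Slc7a1, Slc36a1 and Slc38a7, against 6.89% and 9.24% of all genes. These are single libraries, so no p-value was given. Over 30 tested transporters (without Slc6a8), the log2 response of Otx2-/- and the fitted response of R1 and E14 had a Pearson r of 0.93, and the responses of R1 and E14 had a Pearson r of 0.84. The points of each axis come from the same few libraries, genes are not independent replicates, and r was not taken over all genes.

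**Figure D4:**
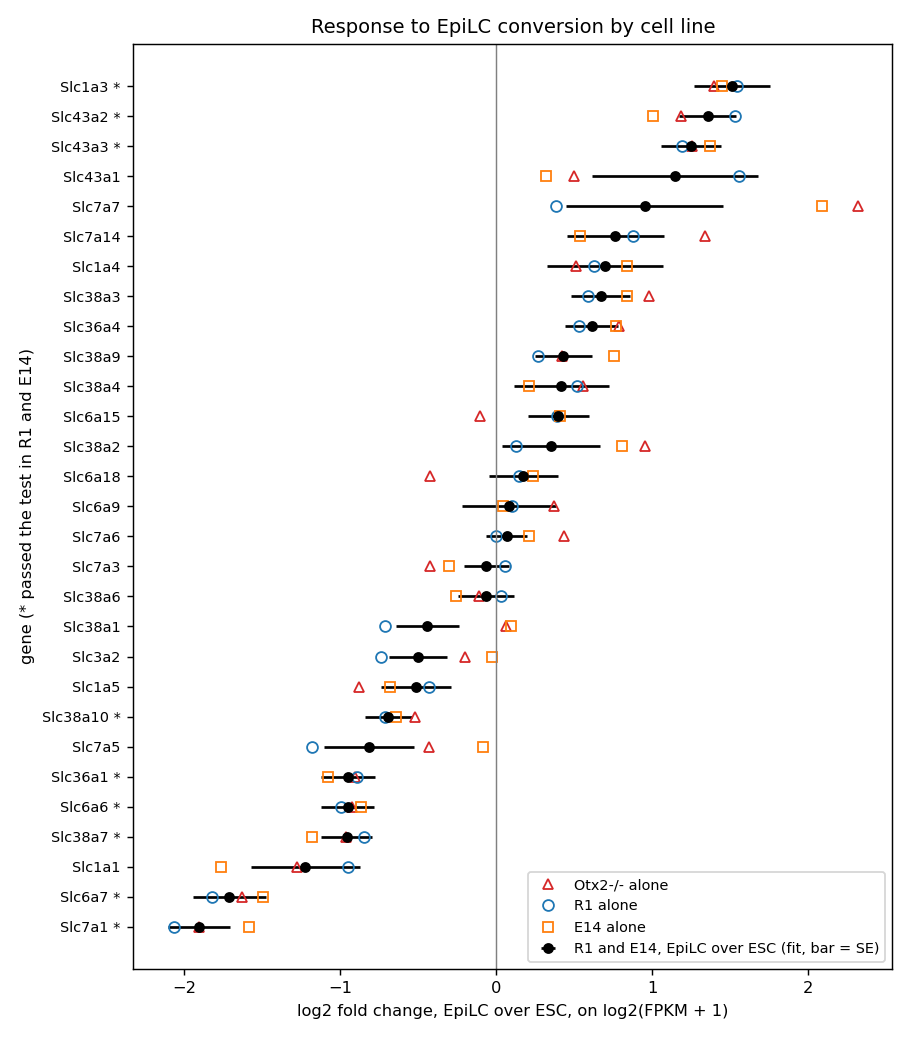
Log2 fold change of EpiLC over ESC for 29 of the 30 tested transporters other than Slc6a8, in the fit of R1 and E14 (black, bar = SE), and as single-line values in Otx2-/- (triangles), R1 (circles) and E14 (squares). For the 9 starred genes all symbols lie on the same side of 0. For Slc7a7 the Otx2-/- and E14 values (2.32 and 2.09) lie far right of the R1 value (0.39). That R1 value averages ESC replicates that differed, with 27.7 FPKM in replicate 1 and 9.85 FPKM in replicate 2.

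Tests between Otx2-/- and the other lines found no transporter past the threshold. Otx2-/- EpiLC against R1 and E14 EpiLC gave 0 of 31 by limma, against 0.163% of all genes (0.139% higher and 0.0244% lower). Otx2-/- ESC against R1 and E14 ESC gave 0 of 31, against 0.139% of all genes (0.0896% higher and 0.0489% lower). The difference in response gave 0 of 31, against 0.277% of all genes (0.179% higher and 0.0978% lower). At an unadjusted p under 0.05 there were also 0 in each of the 3, where all genes passed at only 3.59% (EpiLC), 1.08% (ESC) and 1.58% (response), so a count of 0 among 31 says little. The single Otx2-/- libraries are assumed to vary like the others, and a p that misses the threshold does not show that the lines were alike. In EpiLC, the largest differences were those of Slc7a14 (log2 difference 0.80, SE 0.41) and Slc38a1 (0.77, SE 0.39). Slc38a1 had 26.5 FPKM in Otx2-/- EpiLC, against 11.9, 12.0 and 24.1 FPKM in R1 and E14 EpiLC, where E14 lay close to the Otx2-/- value. In ESC, apart from Slc6a8, they were those of Slc7a7 (-0.85, SE 0.67), Slc43a1 (0.62, SE 0.73) and Slc7a3 (0.47, SE 0.23), which had 85.4 FPKM in Otx2-/- ESC, above the 53.5 to 75.2 FPKM of R1 and E14 ESC.

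The response of E14 against that of R1 also gave 0 of 31 transporters past the threshold, against 0.327% of all genes (0.123% higher and 0.204% lower). At an unadjusted p under 0.05 by limma there was 1 of 31 (3.23%), near the 3.1% of all genes. It was Slc38a1 (difference 0.81, SE 0.26, limma adjusted p = 0.914). Slc7a7 had a response difference of 1.70 (SE 0.89) and Slc7a5 of 1.10 (SE 0.43), with the same limma adjusted p of 0.914. For Slc7a7 the R1 response rests on ESC replicates that differed (27.7 FPKM in replicate 1 and 9.85 FPKM in replicate 2).

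Induction of the Otx2 transgene was read from 1 library with dox and 1 without, both of Otx2-/- tetON Otx2 ESCs, so there is no replicate check. Cells without the transgene were not given dox, so effects of Otx2 and of dox itself cannot be told apart. Otx2 already had 45.8 FPKM without dox. Of 19 transporters that reached 5 FPKM in either library, 2 were at least 2-fold higher with dox and 4 lower, against 6.42% and 5.71% of all genes at that level. Their median log2 ratio was -0.30, and that of all genes was -0.06. The lowest ratio on FPKM + 1 was that of Slc7a3, with 10.4 FPKM with dox and 92.9 FPKM without dox, 8.90-fold lower on FPKM itself. The dox value is below that of all the other 9 libraries, of which the lowest had 53.5 FPKM. Slc7a1 had 14.9 FPKM with dox and 23.9 FPKM without, and the summed cationic carriers had 26.8 FPKM with dox and 118 FPKM without.

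Slc6a15 had 0.853 FPKM with dox and 5.13 FPKM without, while no EpiLC library was below 5.02 FPKM. Slc7a5 had 33.3 FPKM with dox and 73.0 FPKM without, and its heavy chain Slc3a2 had 42.98 FPKM with dox and 75.4 FPKM without, the lowest of its 10 values. The higher ones were Slc43a3, with 6.66 FPKM with dox and 1.48 FPKM without, and Slc1a1, with 10.2 FPKM with dox and 3.47 FPKM without.

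The dox pair did not follow EpiLC conversion in every gene. Of the 10 transporters called in EpiLC, 8 had the same sign with dox, and the Pearson r over the 30 transporters was 0.18. Neither value was taken over all genes, so they do not set these transporters apart. Slc1a3, higher in EpiLC, had 0.791 FPKM with dox and 3.82 FPKM without, and Slc36a1, lower in EpiLC, had 7.51 FPKM with dox and 4.70 FPKM without. Slc6a7 had 1.15 FPKM with dox and 2.25 FPKM without, Slc6a6 had 37.1 FPKM with dox and 63.7 FPKM without, and Slc43a2 had 2.53 FPKM with dox and 1.28 FPKM without. Slc38a7 had 13.8 FPKM with dox and 15.5 FPKM without, and Slc38a10 had 22.9 FPKM with dox and 28.4 FPKM without. Slc1a1, at most 0.682 FPKM in EpiLC, was at its highest with dox. Slc1a1 thus made up 84.3% of the summed glutamate carriers with dox and 43.2% without, and Slc1a3 made up 6.55% with dox and 47.6% without. Slc6a8 had 92.8 FPKM with dox and 62.7 FPKM without, above all other libraries. The naive marker sum was lower with dox (536 FPKM) than without (1346 FPKM), and its part in these values was not tested.

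**Figure D5:**
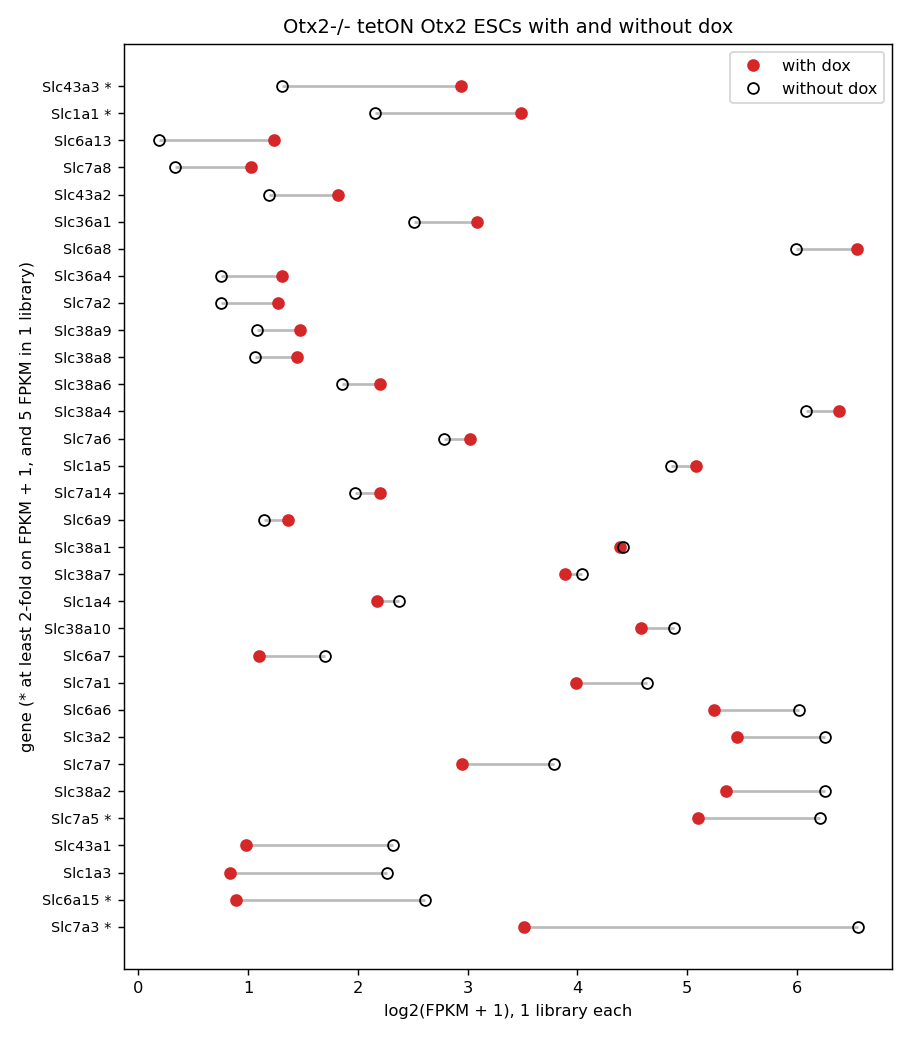
Level on the log2(FPKM + 1) scale of 32 of the 33 transporters that reached 1 FPKM in either of the 2 tetON Otx2 libraries, with dox (filled) and without dox (open), ordered by their ratio. Slc7a3 shows the longest line to the left and Slc43a3 and Slc1a1 the longest to the right.

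The remaining pairs gave the background of such single comparisons. R1 EpiLC with activin A against R1 EpiLC without gave 0 of 20 transporters past the size rule (1.07% of all genes higher and 1.07% lower). Without dox, the tetON Otx2 ESCs against Otx2-/- ESC gave 0 of 19 (1.34% higher and 1.36% lower). R1 ESC replicate 2 against replicate 1 gave 4 of 19 higher and 2 lower, against 5.42% and 6.09% of all genes, although both are libraries of 1 group. The higher ones were Slc1a4, Slc38a4, Slc43a1 and Slc6a8, and the lower ones Slc7a7 (9.85 against 27.7 FPKM) and Slc38a2 (73.5 against 152 FPKM). The 6 genes thus differed between 2 replicates by as much as the size rule asks, and none of them was past the threshold in the test of EpiLC.

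Genes that work with these carriers were taken from textbook lists and read from the same fit of R1 and E14. In the amino acid response, the ATF4 programme, 7 of 24 tested genes fell and 3 rose, against 10.6% and 9.73% of all genes. At an unadjusted p under 0.05 by limma 15 of the 24 passed, against 36.8% of all genes. The median log2 fold change of the list was -0.71, against -0.09 for all genes. Asns, which makes asparagine and is a classic ATF4 target, had 83.0, 70.4 and 82.2 FPKM in EpiLC, against 460, 330 and 274 FPKM in ESC, and fell by 2.13 (limma adjusted p = 0.00501). The values did not overlap, and Otx2-/- EpiLC had 68.5 FPKM, against 291 FPKM in Otx2-/- ESC. Atf4 itself had 34.6 ± 5.21 FPKM in EpiLC and 96.7 ± 30.2 FPKM in ESC (SD, n = 3 each; log2 fold change -1.42, limma adjusted p = 0.0223). Atf5, another stress factor, fell by 1.47. The 3 that rose were Ddit4 (3.59), an mTORC1 inhibitor that hypoxia and glucocorticoids also induce, the serine synthesis gene Phgdh (1.06) and Cebpb (0.96).

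Cytosolic tRNA synthetases, which charge tRNAs with the imported amino acids, had 7 of 20 genes that fell and 0 that rose (unadjusted p under 0.05 in 9), with a median of -0.41. Of all genes in this fit, 10.6% fell, 9.73% rose and 36.8% had an unadjusted p under 0.05, which also applies to the lists below. Among them were Cars (-1.18), Tars (-1.11) and an entry shared by Aars and Exosc6 (-1.13). Of 12 other amino acid carriers tested, 2 rose and 2 fell. The peptide importer Slc15a2 (1.42) and the aromatic amino acid carrier Slc16a10 (1.15) rose. The peptide importer Slc15a1 (-1.64) and the lysosomal cystine exporter Ctns (-0.69) fell. For Slc15a2 the groups overlapped, with 1.37 FPKM in E14 EpiLC and 1.45 FPKM in R1 ESC replicate 1. In amino acid sensing by mTORC1, 3 of 28 rose, led by Sesn3 (1.51), a leucine sensor relative, and 6 fell, led by Rraga (-0.94), a Rag GTPase. Their median was -0.19.

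Of 13 genes of glutamine and glutamate metabolism, 2 fell, Gad1 (-1.45) and Got1 (-0.72), and 0 rose (unadjusted p under 0.05 in 5). Of 10 branched-chain amino acid genes, 2 fell, Bcat1 (-2.26), the cytosolic transaminase of leucine, and Bckdhb (-0.71), and 0 rose (unadjusted p under 0.05 in 2 in all, by limma). Bcat1 had 25.4 ± 1.87 FPKM in EpiLC and 129 ± 37.0 FPKM in ESC (SD, n = 3 each). Of 7 glutathione genes, Gclm (1.05) and Gclc (0.63), the subunits of the rate-limiting ligase, rose, and Gss (-1.47), the next enzyme, and Gpx1 (-0.89) fell.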

How the data were processed

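Polyadenylated RNA was sequenced from 10 libraries of cultured mouse cells without a described strand mark, per the labels' protocols. The authors deposited 1 table of FPKM per gene and library, made with TopHat and Cufflinks on mm9, per the submitters' processing notes. No version, annotation or setting is given in the sources used here. Each table held 23112 entries. Of these, 17 exact repeats were dropped and 228 entries sharing a symbol were summed, which left 22867 symbols.

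Count models need read counts and were left aside. The deposited FPKM were tested on log2(FPKM + 1) by limma (version 3.58.1, under R 4.3.3, two-sided, empirical Bayes with a mean trend) where a gene averaged 1 FPKM or more, with Benjamini-Hochberg adjustment over all of them at 0.05. Adding 1 FPKM shrinks the fold changes of low genes. EpiLC and ESC of R1 and E14 (3 and 3 libraries) had the line as a covariate. The Otx2-/- comparisons used 8 libraries in 4 cell means, without a line term. Pairs of single libraries got no p-value: a gene was counted at a log2 ratio of (FPKM + 1) of at least 1 in size and at least 5 FPKM in either library. Cultures were independent, per the labels' protocols, but few, so p-values measure the spread between these libraries, with activin A included in it and, in the Otx2-/- fits, the line as well.

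Depth was approximated from the 25th percentile of values above 0 among olfactory receptor genes, taken as 1 fragment on 1 kb, and is rough (between 6.55 and 20.6 fragments in units of 1e6). An exact 0 can be a failed estimate, so a gene listed at 0 in 1 library with a median of at least 5 FPKM is described by its values. Gene lists and members were chosen with earlier results of these data known. All members are in the counts, but 1 of them is not reported by name here. Values in each R1 and E14 library of the test are given for members called with separated groups and for the highest of each subfamily. They are also given for those past the size rule in a pair and for the heavy chain Slc3a2 and its main light chains. The same holds for Slc1a6, Slc36a4, Slc38a1, Slc38a3 and Slc38a9, which were named after their values were seen. Low light chains and the remaining members are given by ranges, and the other 4 libraries where a result uses them. Promoter windows came from RefSeq (GRCm38.p6), and none was joined to mm9 coordinates. The fits were tested on simulated data with known changes. Alternatives were the pseudocount, the filter, median-ratio scaling, the line term, single lines and leaving out each library.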

Additional observations from a re-analysis of the deposited data

Results flagged for a closer look

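Slc6a15 moved in opposite directions between Otx2-/- and the other lines. The log2 ratio of EpiLC over ESC was -0.10 in Otx2-/-, against between 0.0048 and 0.78 in the R1 and E14 pairs. The value in Otx2-/- was 5.02 FPKM in EpiLC and 5.46 FPKM in ESC, and the lowest of the other ratios is close to 0. This contrast of signs was not itself tested, and the difference in response did not pass in the fit of 8 libraries.

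Slc38a1 moved in opposite directions between E14 and R1. The log2 ratio of EpiLC over ESC was 0.10 in E14, against between -0.74 and -0.68 in the R1 pairs. The difference in response was 0.81 (SE 0.26, limma adjusted p = 0.914), which did not pass after adjustment over all genes. The labels do not say whether E14 EpiLC had activin A. Slc38a1 had 12.0 FPKM in R1 EpiLC with it and 11.9 FPKM without, 1 library each. The part of activin A in the difference between the lines was not tested.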

How the results depend on the processing

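In EpiLC against ESC, 3 transporters passed higher and 7 lower. Higher calls numbered 9 with no filter on low values, 1 with a filter at 5 FPKM, 5 with median-ratio scaling, 5 with no line covariate and 1 in R1 libraries alone, and between 0 and 8 when each library was left out in turn. Lower calls numbered 4 with a filter at 5 FPKM and 3 in R1 alone, and between 2 and 9 when each library was left out. Over all genes, leaving out each library gave between 211 and 1890 higher and between 187 and 2228 lower calls. All genes had 1624 higher and 1276 lower calls with no filter, and 672 and 972 with the filter at 5 FPKM. They had 1316 and 1537 with no line covariate, and 515 and 366 in R1 alone. With the filter at 5 FPKM the other 5 of the 10 were not tested; for the rest the cause was not tested. With a pseudocount of 0.1 all 10 calls were kept. The log2 fold change of Slc7a3 (-0.06) turned to 0.06215 under median-ratio scaling and to 0.05776 in R1 alone, and ranged between -0.1365 and 0.05776 when each library was left out. That of Slc7a6 (0.07) turned to -0.0024 in R1 alone, and ranged between -0.0024 and 0.1114 when each library was left out. Neither passed in any fit.

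Median-ratio scaling moved the median log2 fold change of all genes in EpiLC against ESC to 0.02, against -0.09 as deposited. Under it, all genes split into 1445 higher and 1125 lower calls, against 1191 and 1293.

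The 3 limma tests of Otx2-/- libraries gave 0 transporters in every alternative. The count of larger E14 responses was 1 without R1 ESC replicate 2 (Slc7a7) and 0 otherwise. Slc6a8 also passed there, as a smaller response, but is not counted because it is listed at 0 in the only R1 ESC library left. In Otx2-/- EpiLC against Otx2-/- ESC, lower values numbered 3, and 5 with a pseudocount of 0.1. In R1 ESC replicate 2 against replicate 1, lower values numbered 2, and 1 with median-ratio scaling. The dox and activin A counts kept within 1.5 times under their 3 alternatives each. The Otx2-/- libraries could not be left out of their own comparisons, nor the E14 libraries out of the E14 response.

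Replicate numbers gave no pairing, because the groups compared share fewer than 2 of them. The line, which the EpiLC against ESC fit already holds as a covariate, is the only pairing that the labels give. At the lowest depth, 1 FPKM on 2 kb is 13.1 fragments, so ratios of genes near 1 FPKM are imprecise.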
